A study of Mus musculus with 23 samples.

Results

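The alpha and beta tubulins measured in the CA3 region of UBB+1 transgenic (tg) mice and wild-type mice comprised 10 genes, Tuba1a, Tuba4a, Tuba8, Tubb2a, Tubb2b, Tubb3, Tubb4a, Tubb4b, Tubb5 and Tubb6. They were represented by 21 probe sets annotated to a single gene, of 45136 tested for 18192 genes, where 100 probe sets that both array types hold are counted on each. The family was taken up because Tubb3 had the largest fall in UBB+1 tg mice among the genes that the study lists, so that the difference between the genotypes chose the members. The differences of the tubulins between the genotypes are therefore given as descriptions, with no p.

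UBB+1 is a ubiquitin B protein with an altered carboxy terminus that arises by a frameshift in the transcript, and it can block the proteasome. The UBB+1 tg mice were heterozygous, came from a single transgenic line on a C57BL/6J background, and expressed the transgene from the CamKIIα promoter, which is active in excitatory forebrain neurons. The controls were wild-type littermates, and all mice were 18 months old. CA3, a field of pyramidal neurons of the hippocampus, was cut by laser, and its RNA (5 ng in total) went through 2 rounds of amplification before hybridisation to Affymetrix MOE430A and MOE430B arrays. On MOE430A there were 6 UBB+1 tg and 5 wild-type mice. On MOE430B there were the same mice and a further wild-type mouse, wt331. Each value is the log2 of a brightness, called here log2 intensity, so that a difference of 1 is a doubling. Levels of different probe sets cannot be compared with each other.

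Microtubules are polymers of dimers of an alpha and a beta tubulin, and they carry transport along axons and dendrites. Mammals have several genes for each of the partners, and brain uses Tuba1a, Tubb2a, Tubb2b, Tubb3 and Tubb4a in particular. Tubb3 is widely used as a marker of neurons, Tubb4b and Tubb5 are made in most tissues, and a new tubulin chain is folded by prefoldin, the chaperonin CCT and the tubulin folding cofactors before it joins a dimer.

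The libraries fell into 3 sets by clustering of all values, and these sets, found in the values themselves, cut across the genotypes. They differed in the 3'-5' difference, which is the log2 signal of control probe sets at the 3' end of a transcript minus that at its 5' end and rises as the 5' end is lost. It was 2.65 to 3.43 in the low set (tg271, wt287 and wt290), 4.44 to 4.62 in the middle set (tg273, tg274, tg276, tg277, wt291 and wt321) and 6.05 to 6.10 in the high set (tg270 and wt289) on MOE430A. On MOE430B the sets held the same mice with wt331 in the middle set, and the 3'-5' difference was 2.41 to 3.73, 4.47 to 4.97 and 6.22 to 6.39. A probe set that detects the transgene promoter lay between 8.45 and 9.34 in the 6 UBB+1 tg mice and between 6.41 and 6.85 in the 5 wild-type mice. The labels and this probe set therefore separated the same mice. Of the 3 markers of CA3 pyramidal cells measured on MOE430A, Bok and Trps1 were brighter than the median probe set of the array and Coch was dimmer, and on MOE430B 0 of 3 were dimmer. Of the markers of dentate granule cells, 3 of 3 were dimmer than the median on MOE430A, Prox1 among them, and 2 of 4 on MOE430B. The CA1 pyramidal cell marker measured on MOE430A, Wfs1, was brighter than the median, and 1 of 2 CA1 markers was dimmer on MOE430B. Of the interneuron markers on MOE430A, 1 of 5 was dimmer, and of the oligodendrocyte markers also 1 of 5. These counts therefore do not show that the tissue held CA3 pyramidal cells alone.

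The promoters of Tubb3 and Tubb4a are shown because these were the tubulins with the largest SD over the mice. Each is the 250 bases before the annotated start, from RefSeq on GRCm38.p6, read 5′ to 3′ on the strand of the gene. Tubb3 lies at chr8:123411303-123411552 on the plus strand and Tubb4a at chr17:57087601-57087850 on the minus strand. Capitals mark the GC box GGGCGG and the CCAAT box CCAAT, each searched on both strands, so that the latter can read ATTGG.
Tubb3: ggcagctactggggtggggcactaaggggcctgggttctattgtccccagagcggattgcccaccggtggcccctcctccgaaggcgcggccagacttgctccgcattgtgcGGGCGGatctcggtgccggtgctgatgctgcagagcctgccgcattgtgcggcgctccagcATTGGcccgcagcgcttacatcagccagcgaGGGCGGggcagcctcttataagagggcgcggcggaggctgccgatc
Tubb4a: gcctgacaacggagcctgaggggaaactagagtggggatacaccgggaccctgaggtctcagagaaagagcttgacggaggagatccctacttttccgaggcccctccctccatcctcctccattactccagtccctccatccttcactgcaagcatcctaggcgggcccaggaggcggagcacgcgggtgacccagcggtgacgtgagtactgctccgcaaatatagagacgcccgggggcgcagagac

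The Tubb3 promoter held the GC box at 2 positions and the CCAAT box once. The Tubb4a promoter held neither of these, nor the TATA box TATAAA or the E-box CACGTG. The GC box was found in 32.7% of the 32851 promoters searched, and in those of 5 of the 8 tubulins with an entry (Tuba1a, Tuba4a, Tubb2a, Tubb3 and Tubb4b). The CCAAT box was found in 33.8% of all promoters and in those of Tuba1a, Tubb3, Tubb4b and Tubb5. TATAAA was found in 12.4% of all promoters and in that of Tubb2a, and CACGTG in 6.02% and in those of Tuba8 and Tubb5. The GC content was 68% for Tubb3 and 61.6% for Tubb4a, and 87.8% and 75.7% of all promoters had a lower one. The searched letters do not contain one another, and a match describes the letters and not a bound site.

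Tubb3, the beta tubulin restricted largely to neurons, had the largest difference of the family, and also the largest SD over the mice. In UBB+1 tg mice, the log2 intensity of probe set 1415978_at was 8.77 in tg271 of the low set, 7.02, 6.55, 6.77 and 7.25 in tg273, tg274, tg276 and tg277 of the middle set, and 7.35 in tg270 of the high set. In wild-type mice it was 9.51 and 9.57 in wt287 and wt290 of the low set, 6.95 and 7.07 in wt291 and wt321 of the middle set, and 8.43 in wt289 of the high set. The low set was bright in both genotypes and the middle set dim in both, so that the genotypes overlapped. The mean was 7.28 ± 0.78 (SD, n = 6) in UBB+1 tg and 8.31 ± 1.27 (SD, n = 5) in wild-type mice, which is 2.03-fold lower in UBB+1 tg mice, with a log2 difference of -1.02 (standard error 0.56). On MOE430A, 8 of all probe sets had a lower difference, and 99.3% had a smaller SD over the mice.

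Between mice of the same genotype, Tubb3 differed by more than between the genotypes. In wild-type mice, Tubb3 was 5.78-fold brighter in the low set than in the middle set and 2.68-fold brighter in the high set than in the middle set. The array sets held 89.6% of its variance over the mice. Compared within a set, UBB+1 tg minus wild type was -0.77 in the low set, -0.11 in the middle set and -1.09 in the high set. The largest set of mice therefore had the smallest Tubb3 difference, and the sets with larger ones held 2 wild-type mice and 1 UBB+1 tg mouse, and 1 of each. When array set entered the fit as a block, the log2 difference was -0.48 (standard error 0.17), or 1.40-fold lower. Of the low set, 1 mouse of 3 was UBB+1 tg, and of the middle set 4 of 6. The part that the 3'-5' difference had in the Tubb3 difference was not tested. In bulk tissue, fewer cells of a type and less RNA per cell cannot be told apart.

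**Figure D1:**
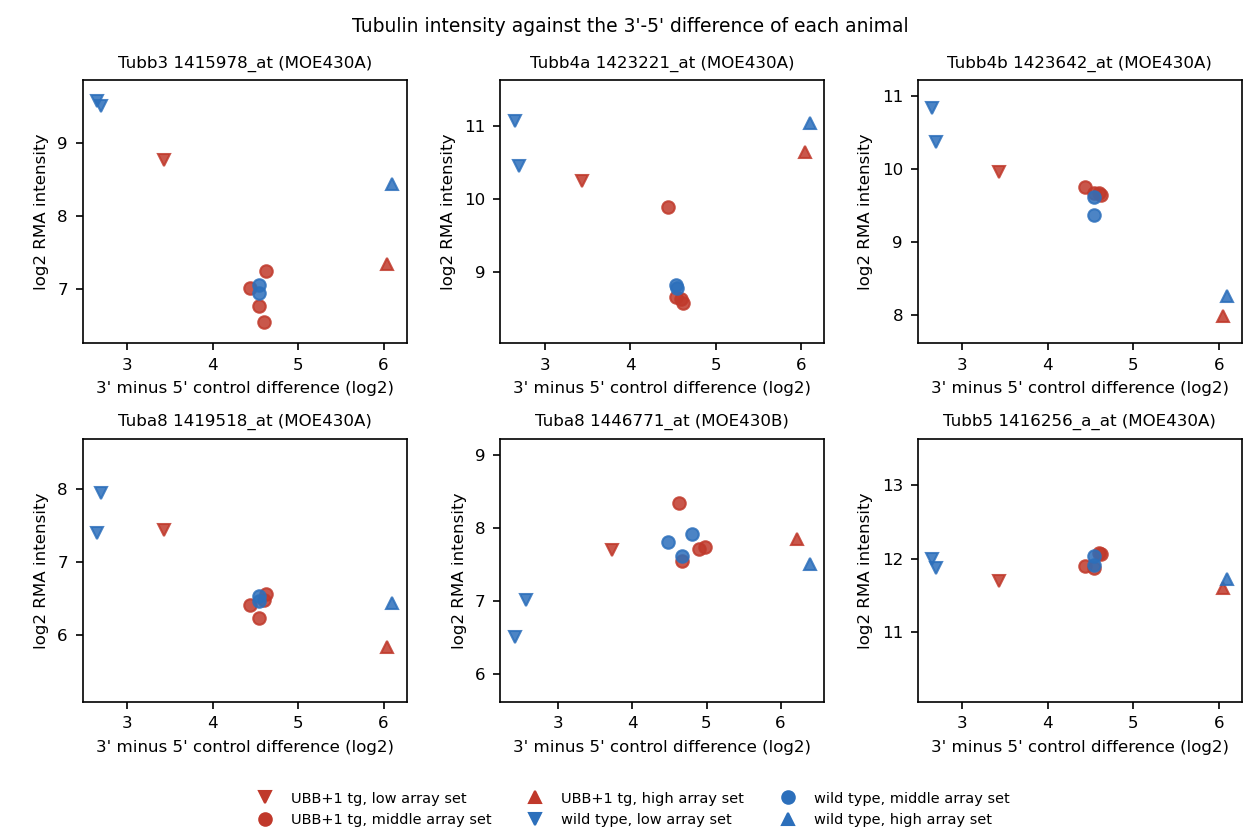
Log2 intensity of 6 tubulin probe sets against the 3'-5' difference of the same array, 1 point per mouse, red for UBB+1 tg and blue for wild type, with the array set as the shape and every vertical axis spanning the same number of log2 units. Tubb3, Tubb4b and Tuba8 on MOE430A were bright in the low set, Tuba8 on MOE430B was dim in the wild-type mice of that set, and Tubb5 stayed within 0.48 over all mice.

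Markers of neurons are given because Tubb3 is itself one. The log2 of their summed intensity on MOE430A (Snap25, Syn1, Rbfox3, Syt1 and Map2) was 11.80 to 12.95 in UBB+1 tg and 11.68 to 12.82 in wild-type mice. It was 11.85 to 12.43 in the low set, 11.68 to 12.12 in the middle set and 12.82 to 12.95 in the high set. On MOE430B (Syt1, Rbfox3, Snap25, Map2 and Slc17a7), the sum was 13.33 to 13.92 in UBB+1 tg and 13.25 to 13.82 in wild-type mice, and 13.25 to 13.47, 13.62 to 13.92 and 13.33 to 13.41 in the low, middle and high set. The sum was thus highest in the high set on MOE430A and in the middle set on MOE430B. Each sum came mostly from its brightest markers, Snap25 on MOE430A and Syt1 and Rbfox3 on MOE430B, and is no even measure of neurons. Single neuronal probe sets of MOE430A differed between the genotypes in both directions, from -0.48 for Syn1 to 0.37 for Snap25 and 0.39 for a probe set of Syt1. Those of MOE430B ran from -0.52 for Slc17a7 to 0.31 for a probe set of Syt1. CA3 pyramidal cell markers summed to 9.95 to 11.45 in UBB+1 tg and 9.91 to 11.71 in wild-type mice on MOE430A. Both mice of the high set were at the bottom there, at 9.91 to 9.95, and that sum came mostly from Bok, its brightest marker. On MOE430B (Cpne4, Grik4 and Trps1), the sum was 9.56 to 10.24 in UBB+1 tg and 9.34 to 10.13 in wild-type mice. The high set was not at the bottom on MOE430B, at 9.56 to 9.75 against 9.34 to 10.24 in the middle set. Oligodendrocyte markers on MOE430A summed to 12.84 to 13.37 in UBB+1 tg and 12.71 to 13.04 in wild-type mice. Dentate granule cell markers on MOE430A, of which 3 of 3 were dimmer than the median probe set, summed to 6.46 to 6.98 and 6.51 to 6.71. The ranges of the genotypes overlapped for these lists, and their part in the tubulin values was not tested.

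Tubb4a, a beta tubulin of neurons and myelinating oligodendrocytes, showed the second largest difference, again with overlap between the genotypes. Probe set 1423221_at was at 10.25 in tg271, at 9.89, 8.64, 8.67 and 8.59 in tg273, tg274, tg276 and tg277, and at 10.65 in tg270. In wild-type mice it was at 10.45 and 11.07 in wt287 and wt290, at 8.79 and 8.83 in wt291 and wt321, and at 11.03 in wt289. The 3 dimmest UBB+1 tg mice and the 2 dimmest wild-type mice all belonged to the middle set, and tg273 was the bright mouse of that set. The means were 9.45 ± 0.93 (SD, n = 6) and 10.04 ± 1.15 (SD, n = 5), a difference of -0.59 (standard error 0.56) that was -0.14 (standard error 0.26) after blocking on array set. It was -0.51, 0.14 and -0.39 in the low, middle and high set, so that the direction was not the same in all of them. Tubb4a was bright in the high set as well as in the low set, and in wild-type mice these were 4.68-fold and 3.87-fold brighter than the middle set.

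Tubb4b, a beta tubulin of most tissues, was represented by 6 probe sets that did not vary alike. Probe set 1423642_at was at 9.95 in tg271, at 9.74, 9.67, 9.67 and 9.64 in tg273, tg274, tg276 and tg277, and at 7.99 in tg270. In wild-type mice it was at 10.36 and 10.84 in wt287 and wt290, at 9.37 and 9.61 in wt291 and wt321, and at 8.26 in wt289. This probe set fell in order from the low over the middle to the high set in both genotypes, and 92.4% of its variance lay between the array sets. Its difference was -0.24 (standard error 0.46), and -0.13 (standard error 0.15) with the block. Another bright probe set of the gene, 1456470_x_at, pointed the other way with 0.23 (standard error 0.14), and all 6 UBB+1 tg mice lay above the wild-type mean. Its values were 9.73, 9.14, 9.39, 9.27, 9.40 and 9.19 in tg270, tg271, tg273, tg274, tg276 and tg277. They were 9.19, 9.37, 9.17, 8.63 and 9.25 in wt287, wt289, wt290, wt291 and wt321, with wt291 apart from the others. The correlation of the 2 probe sets over 11 mice, centred within genotype, was -0.42, and it was 0.95 over the 6 mice of the middle set, a description of values that share the same RNA. That set holds 2 wild-type mice, wt291 and wt321, and 2 centred values always mirror each other. The 0.95 rests mostly on these 2 mice, so that it does not show agreement over 6 mice. The remaining Tubb4b probe sets had differences of -0.12 to 0.10, and 1438622_x_at, 1439416_x_at, 1456031_at and 1456078_x_at were all dimmer than the median probe set of the array. The suffix _x_at marks probes that can cross-hybridise.

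Tubb2a and Tubb2b encode closely related beta tubulins that are abundant in the brain. Tubb2a probe set 1427838_at was at 7.20, 6.93, 7.22, 7.21, 7.15 and 7.32 in tg270, tg271, tg273, tg274, tg276 and tg277, and at 7.32, 7.48, 7.33, 7.18 and 7.36 in wt287, wt289, wt290, wt291 and wt321. All 6 UBB+1 tg mice lay below the wild-type mean, although wt291 lay among them. The means were 7.17 ± 0.13 (SD, n = 6) and 7.33 ± 0.11 (SD, n = 5), a difference of -0.16 (standard error 0.08). The other Tubb2a probe set, 1427347_s_at, gave 0.11 (standard error 0.12), so that the gene had no single direction. Its means were 12.22 ± 0.17 and 12.10 ± 0.25, and its suffix marks probes shared between related transcripts. Tubb2b had means of 8.27 ± 0.34 and 8.21 ± 0.25 and a difference of 0.05 (standard error 0.17), and its brightest mouse was tg270 at 8.85.

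Tubb5, a beta tubulin of dividing and other cells throughout the body, was among the steadiest tubulins. Probe set 1416256_a_at ranged from 11.60 to 12.08 in UBB+1 tg and from 11.72 to 12.03 in wild-type mice, with a difference of -0.04 (standard error 0.10). Probe set 1455719_at was at 8.53, 8.19, 8.39, 8.39, 8.42 and 8.38 in tg270, tg271, tg273, tg274, tg276 and tg277, and at 8.51, 8.83, 8.52, 8.36 and 8.47 in wt287, wt289, wt290, wt291 and wt321. Here too all 6 UBB+1 tg mice lay below the wild-type mean, with a difference of -0.16 (standard error 0.09). Tubb6 probe set 1416431_at was dimmer than the median probe set and spanned only 0.12 over all mice, with a difference of -0.02 (standard error 0.05). On MOE430B, Tubb6 probe set 1446353_at lay between 6.21 and 6.93 in UBB+1 tg and between 6.27 and 6.72 in wild-type mice, with a difference of 0.14 (standard error 0.13).

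The alpha tubulins showed smaller differences than Tubb3, and the array types disagreed for one of them. Tuba8, an alpha tubulin of muscle, testis and brain, was at 7.43 in tg271, at 6.41, 6.48, 6.23 and 6.55 in tg273, tg274, tg276 and tg277, and at 5.83 in tg270 with probe set 1419518_at of MOE430A. In wild-type mice it was at 7.94 and 7.40 in wt287 and wt290, at 6.46 and 6.54 in wt291 and wt321, and at 6.44 in wt289. The 3 brightest mice were those of the low set, and the difference was -0.47 (standard error 0.33), or -0.23 (standard error 0.12) with the block. Probe set 1446771_at of MOE430B was at 7.69 in tg271, at 8.34, 7.72, 7.54 and 7.74 in tg273, tg274, tg276 and tg277, and at 7.85 in tg270. In wild-type mice it was at 6.50 and 7.01 in wt287 and wt290, at 7.91, 7.61 and 7.81 in wt291, wt321 and wt331, and at 7.51 in wt289. All 6 UBB+1 tg mice lay above the wild-type mean, and the dimmest wild-type mice were those of the low set. Here the difference was 0.42 (standard error 0.22), or 1.34-fold higher in UBB+1 tg mice, and it was 0.06 within the middle set. Over the 11 mice on both array types, the correlation of these 2 probe sets, centred within genotype, was -0.68. It was 0.12 over the 6 mice of the middle set, 2 of them wild type.

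Tuba1a, the main alpha tubulin of developing neurons, lay between 12.64 and 13.12 in UBB+1 tg and between 12.75 and 13.21 in wild-type mice. Its difference was -0.12 (standard error 0.11). Tuba4a, an alpha tubulin whose gene does not encode the last tyrosine found in most others, had 3 probe sets with differences of 0.06 (standard error 0.17), -0.05 (standard error 0.29) and 0.11 (standard error 0.12). Probe set 1417374_at of Tuba4a was dimmest in tg270, at 9.12, and brightest in wt287 and wt290, at 10.72 in each. The Tuba4a probe sets 1417373_a_at and 1417374_at correlated with 0.72 over 11 mice and 0.91 over the middle set, centred within genotype. The 0.91 rests mostly on the 2 wild-type mice of that set, whose centred values mirror each other, and does not show agreement over the set. Among wild-type mice both probe sets were dimmest in wt291.

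**Figure D2:**
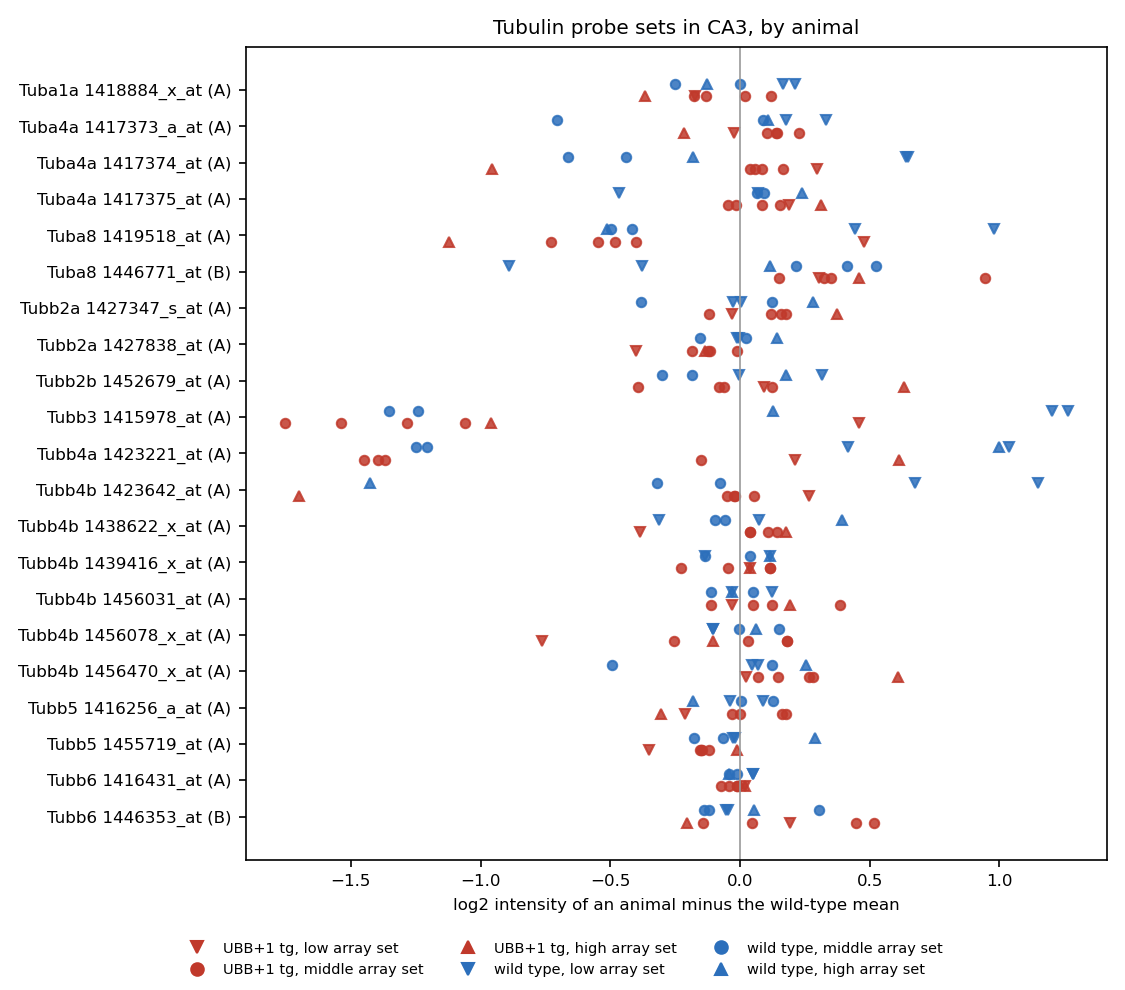
Log2 intensity of each mouse minus the mean of the wild-type mice, for the 21 tubulin probe sets with the array type (MOE430A or MOE430B) in brackets, red for UBB+1 tg and blue for wild type, with the array set as the shape. The genotypes overlapped in every row, and the rows of Tubb3 and Tubb4b 1423642_at spread most, over 3.02 and 2.85.

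Over the family, 0 of the 21 probe sets had genotypes that did not overlap, against 0.234% of all probe sets on MOE430A and 0.142% on MOE430B. By limma, 0 of the 21 passed a false discovery rate of 10%, where the share over all probe sets was also 0% on both array types. At an unadjusted p under 0.05, 0 of the 21 passed, against 3.48% of all probe sets on MOE430A and 3.05% on MOE430B. With array set as a block 2 of the 21 passed, among them Tubb3, whose difference chose the family. The share over all probe sets was not counted for that fit, so that this count has no background to be set against. Nothing is read from these counts, since the contrast was used to choose the family.

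The family was taken up for the Tubb3 difference, so that its size beside those of the other tubulins is only a description. On MOE430A, 11 of the 19 tubulin probe sets were lower and 8 higher in UBB+1 tg mice, where 48.3% of all probe sets were lower. The 2 tubulin probe sets of MOE430B were both higher, where 52.4% of all probe sets were lower. The absolute difference was under 0.25 in 16 of the 19. The median was -0.04, against 0.00 over all probe sets, and after blocking on array set it was -0.03 against 0.01. In 5 of the 19, the difference had the same sign in all 3 array sets, and in each of these it was lower in UBB+1 tg mice, namely Tuba8 1419518_at, Tubb2a 1427838_at, Tubb3, Tubb4b 1456078_x_at and Tubb5 1455719_at. Over all probe sets, 25.5% had the same sign in the 3 sets and 11.6% were lower in each. On MOE430B, 1 of the 2 tubulin probe sets, Tuba8 1446771_at, had the same sign in all 3 sets, and it was higher in UBB+1 tg mice, where 22.7% of all probe sets had the same sign and 10.6% were higher in each. The share of variance between the array sets had a median of 49.9% over the tubulin probe sets and 39.6% over all probe sets of MOE430A.

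**Figure D3:**
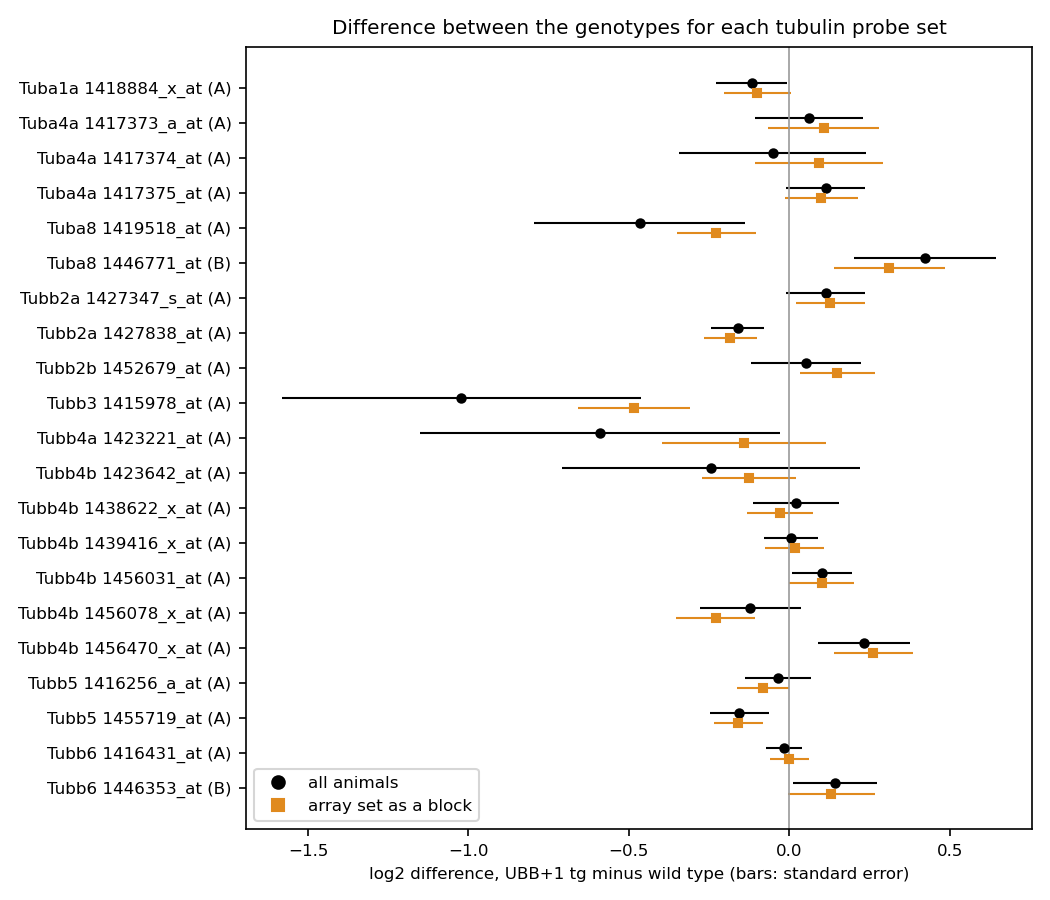
Log2 difference of UBB+1 tg minus wild-type mice for the 21 tubulin probe sets, from all mice (black circles) and after blocking on array set (orange squares), with bars for the standard error. Tubb3 moved from -1.02 to -0.48 and Tubb4a from -0.59 to -0.14, whereas most other probe sets lay close to 0 in both.

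The probe sets that varied over the mice most like Tubb3 belonged to Chst12 (r = 0.98), Banf1 (0.97), Dtymk (0.97), Zfp574 (0.97) and Selenow (0.96), by Pearson's r over the 11 mice of MOE430A. These mice fall into the array sets, and over the 6 mice of the middle set r was 0.26, 0.63, 0.58, 0.23 and 0.37. Like Tubb3, all 5 were brightest in the low set and dimmest in the middle set. Their differences between the genotypes were -0.65, -0.79, -0.63, -0.27 and -1.11, and -0.31, -0.18, -0.18, -0.13 and -0.33 after blocking on array set. Banf1, whose product binds chromatin at the nuclear envelope, was at a mean of 8.76 in the low set, 6.18 in the middle set and 6.96 in the high set.

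Genes that fold, nucleate, modify or sever tubulin were examined next, over 8 lists that hold 77 genes. Of these, 70 were measured, by 166 probe sets, of which 2 are on both array types and are counted on each, and by limma 0 passed a false discovery rate of 10%. At an unadjusted p under 0.05, 3 of 100 probe sets on MOE430A were higher and 3 lower, against 1.91% and 1.57% of all probe sets. On MOE430B, 1 of 68 was higher and 2 lower, against 1.52% and 1.53%. These shares lie near the background. Every adjusted p named below is 0.984 on MOE430A, or 0.995 for Hdac6, and 1.00 on MOE430B, by limma with the Benjamini-Hochberg adjustment.

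The tubulin folding cofactors, which assemble the alpha and beta chains into a dimer, were measured for 7 of 7 genes by 14 probe sets. Tbcb, which binds alpha tubulin, was at 10.85 to 11.27 in UBB+1 tg and 11.14 to 11.67 in wild-type mice, with a difference of -0.31 (standard error 0.12, unadjusted p = 0.019 by limma). It was -0.30 after blocking on array set, and all 6 UBB+1 tg mice lay below the wild-type mean, though Tbcb was named for its low p. Tbcc, which triggers release of the finished dimer, gave -0.37 (standard error 0.16) with a probe set and 0.00 with its other one. Tbcel, a relative of a cofactor that destabilises tubulin, gave 0.46 (standard error 0.21) and 0.27. Tbcb, Tbcel and Tubb3 are in the study's list, which was chosen on these samples, so that they are no independent evidence of a direction.

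Prefoldin, which hands new tubulin chains to the chaperonin, was measured for 6 of 6 genes by 10 probe sets. On MOE430A 6 of 9 were lower in UBB+1 tg mice and on MOE430B 3 of 3, of which 2 are also on MOE430A, and 0 passed an unadjusted p of 0.05 by limma. Its median was -0.06 on MOE430A and -0.27 on MOE430B. Pfdn6 was at -0.46 (standard error 0.23) on MOE430B and at -0.31 with the same probe set on MOE430A. Pfdn5 was at -0.30 (standard error 0.20) with a probe set and between -0.27 and 0.11 in 5 other measurements, of which those of a probe set on both array types were 0.04 on MOE430A and -0.27 on MOE430B. The probe set of Pfdn2 was at -0.82 (standard error 0.59), or -0.32 with the block. Pfdn2 varied widely, from 8.10 to 11.15 in wild-type mice. The chaperonin CCT, the ring that folds tubulin and actin, was measured for 8 of 8 genes by 25 probe sets, with a median of 0.04 on MOE430A. Cct6a was at 0.35 (standard error 0.23) and 0.30 with its other probe set. Cct3 was at 0.20 (standard error 0.13), with 6 other probe sets from -0.18 to 0.22, and Cct4 at 0.18 (standard error 0.18), with 6 others from -0.04 to 0.05, so that neither had a single direction.

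Of the other tubulins, 6 of 10 genes were measured. Tubg2, a gamma tubulin, which nucleates microtubules, was at -0.54 (standard error 0.22, unadjusted p = 0.031 by limma) with a probe set and 0.01 with another, and Tubg1, its relative, was at -0.39 (standard error 0.25). The gamma-tubulin complex was measured for 8 of 8 genes, and its component Tubgcp3 was at 0.31 (standard error 0.11, unadjusted p = 0.016 by limma). This was the smallest p of the list genes named here, and Tubgcp3 was dimmer than the median probe set of the array. Tubgcp5 was at 0.37 (standard error 0.34), with others at 0.01 and 0.03, and Nedd1, which recruits the complex, at -0.10 (standard error 0.08) and -0.07. The alpha tubulin Tuba3b was dim, with a difference of 0.09 (standard error 0.10). The gamma tubulins and the complex with which they act thus had values on both sides of 0.

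Enzymes that add or remove tyrosine and glutamate at the tubulin tail were measured for 19 of 21 genes. Tpgs2, a subunit of the polyglutamylase, was at -0.32 (standard error 0.14) and Ttll13, a glutamylase, at -0.27 (standard error 0.12), both on MOE430B, and Ttll1, the catalytic subunit of the polyglutamylase, at -0.29 (standard error 0.14). All 6 UBB+1 tg mice lay below the wild-type mean for each of these 3, with overlap between the genotypes. The 3 were named for their low p, so that this side follows in part from the choice. Their other probe sets were at -0.19 to -0.07 for Tpgs2, -0.12 to -0.03 for Ttll13 and -0.64 to -0.04 for Ttll1. For acetylation, the acetyltransferase Atat1 was at 0.15 (standard error 0.06) on MOE430B, with other probe sets from -0.25 to 0.17, and the deacetylases Sirt2 and Hdac6 were at -0.17 (standard error 0.17) and 0.01 (standard error 0.12). Of the microtubule destabilisers, measured for 13 of 14 genes, the kinesins Kif2a and Kif2c were at 0.60 (standard error 0.25) and 0.15 (standard error 0.06), and the severing enzyme Spast at 0.51 (standard error 0.24). The other Kif2a probe sets lay between -0.17 and -0.01 and those of Kif2c between -0.02 and 0.11, so that neither gene had a single direction, and the other Spast probe set was at 0.41.

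**Figure D4:**
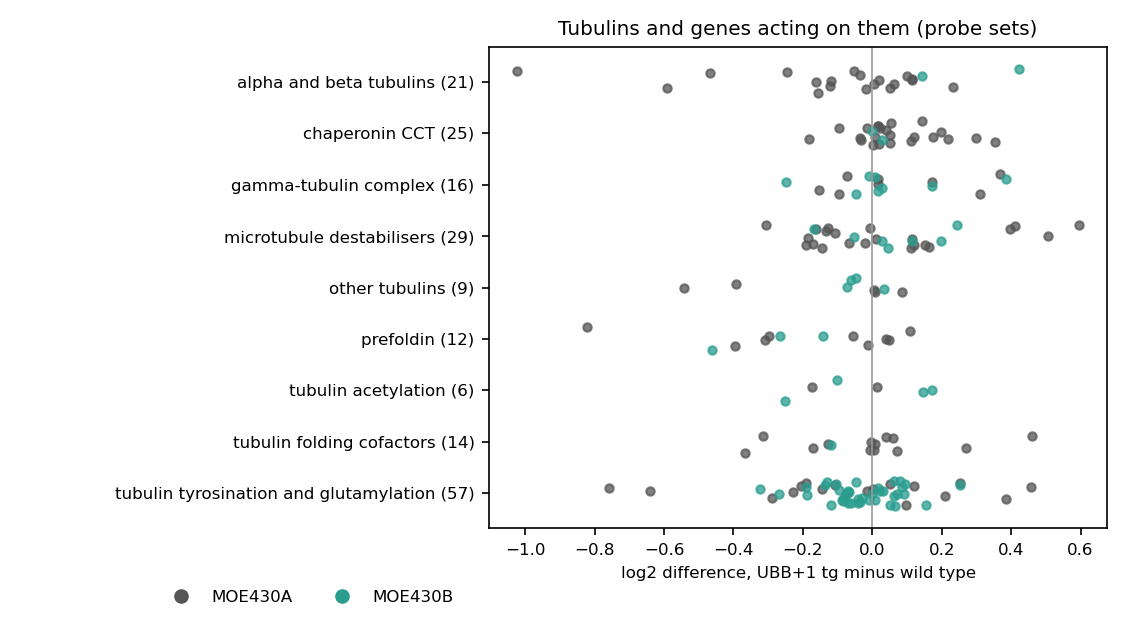
Log2 difference of UBB+1 tg minus wild-type mice, 1 point per probe set (grey for MOE430A, green for MOE430B), for the tubulins and for the 8 lists of genes that act on them, with the number of points in brackets (a probe set on both array types has 2). The points of each list lay on both sides of 0, and Tubb3 at -1.02 and Pfdn2 at -0.82 were the lowest.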

How the data were processed

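Arrays, animals and genotypes were taken from the sample labels. The authors deposited RMA intensities, which had undergone background correction and quantile normalization within an array type and had been combined into a value per probe set. They are linear intensity on MOE430A, as deposited, and were converted to log2 here. On MOE430B the deposited values are already log2. The RMA version is not given in the sources used here. The RNA isolation kit differs between the labels (RNeasy Mini) and the methods (RNeasy Micro). The study's main method needs single probes and was not repeated. The study states that RMA with a limma t-test, at a false discovery rate of 10%, bore out its results. The limma fit made here called 0 probe sets at that rate on either array type, and the reason for this was not tested.

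Left out were 64 controls of each array type and 1 probe set that detects the transgene promoter. A linear model was fitted over all probe sets with limma 3.58.1 (lmFit, eBayes; R 4.3.3), and every difference is the UBB+1 tg mean less the wild-type mean. Benjamini-Hochberg adjustment was made within an array type, at a false discovery rate of 10%. The fit was tested on simulated data. Array sets come from clustering of the samples into 3 groups. The number of animals limits the precision. A p-value sets the difference between the genotype means against the spread within the genotypes, moderated over all probe sets. Without the block, that spread includes the differences between array sets.

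Named were all tubulin probe sets annotated to 1 gene, from each list the 3 genes (or fewer) ranked lowest by p, and the 5 genes most like Tubb3. A further 2 probe sets name several genes, a tubulin among them, and were left out. The members and lists were chosen with earlier results of these data known. RefSeq promoters (GRCm38.p6) matched 8 of the 10 tubulins, all but Tubb2b and Tubb6. As alternatives, the threshold was set to a false discovery rate of 5% or an unadjusted p, dim or cross-hybridising probe sets were removed, values were floored at their 25th percentile, quantile-normalized again or centred on the median, and the variance model was changed. Arrays were also weighted, p-values adjusted over both array types at once, and the 3'-5' difference or the array set added to the model. Finally, the fit was restricted to the largest array set, to gene means of probe sets, or to all animals but 1.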

Additional observations from a re-analysis of the deposited data

Results flagged for a closer look

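In 7 of 42 groups of mice, defined by a tubulin probe set and a genotype, a single mouse stood apart from the others by Dixon's criterion. The criterion would flag about 5% of groups whose values came from a single normal distribution. Here each group mixes 3 array sets, and the groups share the same mice, so that 7 of 42 cannot be set against that share. The mice tg271 and tg270 were the only UBB+1 tg mice of the low and the high set. In UBB+1 tg mice, tg271 stood apart for Tubb3 at 8.77, where the others lay between 6.55 and 7.35, and for Tubb4b 1438622_x_at at 5.88, where they lay between 6.30 and 6.44. The mouse tg270 stood apart for Tubb4b 1423642_at at 7.99, with the others between 9.64 and 9.95, and for Tuba4a 1417374_at at 9.12, with the others between 10.12 and 10.37. In wild-type mice, wt291 stood apart for Tuba4a 1417373_a_at at 12.43, with the others between 13.22 and 13.46, and for Tubb4b 1456470_x_at at 8.63, with the others between 9.17 and 9.37. The mouse wt287 stood apart for Tuba4a 1417375_at at 7.55, with the others between 8.09 and 8.26. Of these mice, tg271 and wt287 belong to the low array set, tg270 to the high set and wt291 to the middle set.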

How the results depend on the processing

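No paired analysis was made, because the label numbers name single mice and the labels give no litter by which littermates could be paired. The count of tubulin probe sets and of list genes past the false discovery rate was 0 in every setting. The Tubb3 difference was negative in all settings, from -1.47 with array weights to -0.11 in the largest array set only, and from -1.36 without wt291 to -0.71 without wt290. For Tubb4a it was -1.11 with array weights and 0.14 in the largest array set only, and between -0.90 without wt291 and -0.33 without wt290. The median over the tubulin probe sets of MOE430A was 0.084 in the largest array set only and lay between -0.083 and -0.0011 when each mouse was left out, and that on MOE430B between 0.19 and 0.37. Without wt287, the Tuba8 difference was -0.22 on MOE430A and 0.24 on MOE430B. In the largest array set only, Tuba1a was at 0.084 and the 3 Tuba4a probe sets at 0.46, 0.64 and -0.034. Of the 21 tubulin probe sets, 13 turned sign in some setting and 8 in none.

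In the largest array set only, Pfdn2 was at 0.13, Sirt2 at 0.21, Spast at -0.11, Tubg1 at 0.14 and Tubgcp5 at -0.18, each with the opposite sign to the value from all mice. Hdac6, at 0.013 from all mice, turned to -0.013 with array weights, was below 0 without tg271, wt290, wt291 or wt321, and lay between -0.051 and 0.096 when each mouse was left out. Pfdn2 was at -0.38 without wt287. The largest array set holds 2 wild-type mice on MOE430A, and the cause of these changes was not tested. Only brightness was measured, so that a dim probe set bounds no level.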
